A study of Mus musculus with 6 samples.

Results

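The collagen genes of brown fat were described here in 3 libraries of ADCY3∆AT mice and 3 libraries of wild-type (WT) mice. Every row of the deposited count table whose gene symbol reads Col, a number, a and a number (such as Col1a1) and that is annotated as protein-coding was taken, which gave 44 of 54385 rows. The rule used symbols only and no measured value. All mice were C57BL/6N, aged 20 weeks and on chow. ADCY3∆AT is a knockout of the form of adenylyl cyclase 3 called Adcy3-AT, and nothing in the labels names a promoter or Cre driver, the number of founder lines, or whether a library came from a single mouse. Each sample is labelled as interscapular brown adipose tissue, while the series design calls the tissue inguinal. The comparison asks how brown fat RNA differs when Adcy3-AT, a truncated form by the series title, is missing. Genotype and anything that went with it, such as breeding or handling, cannot be told apart.

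Collagens are the main fibrous proteins outside cells. Each molecule is a trimer of chains that wind around each other, and this works only where glycine, the smallest amino acid, recurs at each turn in a repeat written Gly-X-Y. Fibrillar collagens (types I, II, III, V, XI, XXIV and XXVII) form rope-like fibrils, type IV collagen forms the sheets of basement membranes, and the other types decorate fibrils, anchor sheets, form beaded filaments or span the cell membrane. In adipose tissue type IV and type VI collagens surround each adipocyte, and type IV also lines capillaries. Prolines in the Y position are hydroxylated by the P4HA enzymes, a step that makes the helix stable at body temperature.

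The repeat can be read in the coding sequences, which are shown for a type I chain, for the gene with the clearest change below (Col27a1) and for the main basement membrane chain. Codons are given from the GENCODE M21 transcripts of GRCm38, positions count from the A of the start codon, and capitals mark the glycine codons of the repeat.
Col1a1 (chromosome 11, coding bases 592 to 654): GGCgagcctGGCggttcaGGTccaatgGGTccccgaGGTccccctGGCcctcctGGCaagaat
Col27a1 (chromosome 4, coding bases 2107 to 2169): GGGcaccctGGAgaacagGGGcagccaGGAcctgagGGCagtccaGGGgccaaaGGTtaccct
Col4a1 (chromosome 8, coding bases 451 to 513): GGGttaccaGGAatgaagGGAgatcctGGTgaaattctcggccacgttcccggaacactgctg
In Col1a1 and Col27a1 all 7 triplets of the stretch start with a glycine codon. The Col4a1 stretch was placed at the end of its longest run, and those of Col1a1 and Col27a1 inside theirs. In the Col4a1 stretch the repeat therefore stops after 4 glycine codons, an interruption of the kind that makes type IV molecules flexible. The longest unbroken run held 338 triplets in Col1a1, 217 in Col27a1 and 40 in Col4a1. Over the 11 fibrillar genes it ran from 216 to 344 triplets (median 338), over the 6 type IV genes from 39 to 66 (median 43.5), and over the 27 other genes from 23 to 113 (median 45). The share of triplets with a proline codon in the Y position, the place that P4HA enzymes modify, was 35.2% in Col1a1, 35.3% in Col27a1 and 47.4% in Col4a1. Its median was 33.2% in fibrillar, 47.8% in type IV and 39% in other genes, with runs of at least 3 triplets counted.

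Library totals ran from 13758492 to 19592156 estimated counts, and mitochondrially encoded genes took 21.9% to 24.4% of them. The 12 brown adipocyte markers were all present, with Ucp1, the uncoupling protein of brown fat, at 4028.3, 4485.6 and 4201.9 CPM in ADCY3∆AT and 5247.9, 5431.5 and 3678.8 CPM in WT. CPM are estimated counts set to a common library size, here with TMM factors (trimmed mean of M-values). The summed level of these markers was 16223.2 to 17040.7 CPM in ADCY3∆AT and 17980.8 to 18392.4 CPM in WT, with none of them called. Adcy3 held 200.7 ± 36.5 CPM in ADCY3∆AT and 207.7 ± 40.7 CPM in WT (SD, n = 3 each), and a row whose identifier ends in the same digits held 1.27, 0 and 0 CPM in ADCY3∆AT against 214.6, 197 and 117.9 CPM in WT (edgeR adjusted p = 0.000845). Of the 17 skeletal muscle markers 13 were tested and 8 were called lower, where 1.67% of all tested genes were. Their summed level ran from 46.7 to 49.1 CPM in ADCY3∆AT and from 69.1 to 789.7 CPM in WT. Myh4 lay at 0.22 CPM or less in ADCY3∆AT. WT replicate 3 had the most muscle RNA.

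Of the 44 collagen genes, 29 had enough counts to be tested. These were 8 of 11 fibrillar, 5 of 6 type IV and 16 of 27 other genes. The whole family took 0.124%, 0.129% and 0.155% of all counts in the ADCY3∆AT libraries and 0.124%, 0.137% and 0.148% in the WT libraries. The genotypes overlapped, with means of 0.136 ± 0.0165% in ADCY3∆AT and 0.136 ± 0.0116% in WT (SD, n = 3 each). The 6 type IV genes made up 47.9% to 56.3% of collagen counts in ADCY3∆AT and 42.7% to 50.7% in WT, and the 11 fibrillar genes 26.6% to 33.8% in ADCY3∆AT and 31.9% to 37.8% in WT.

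**Figure D1:**
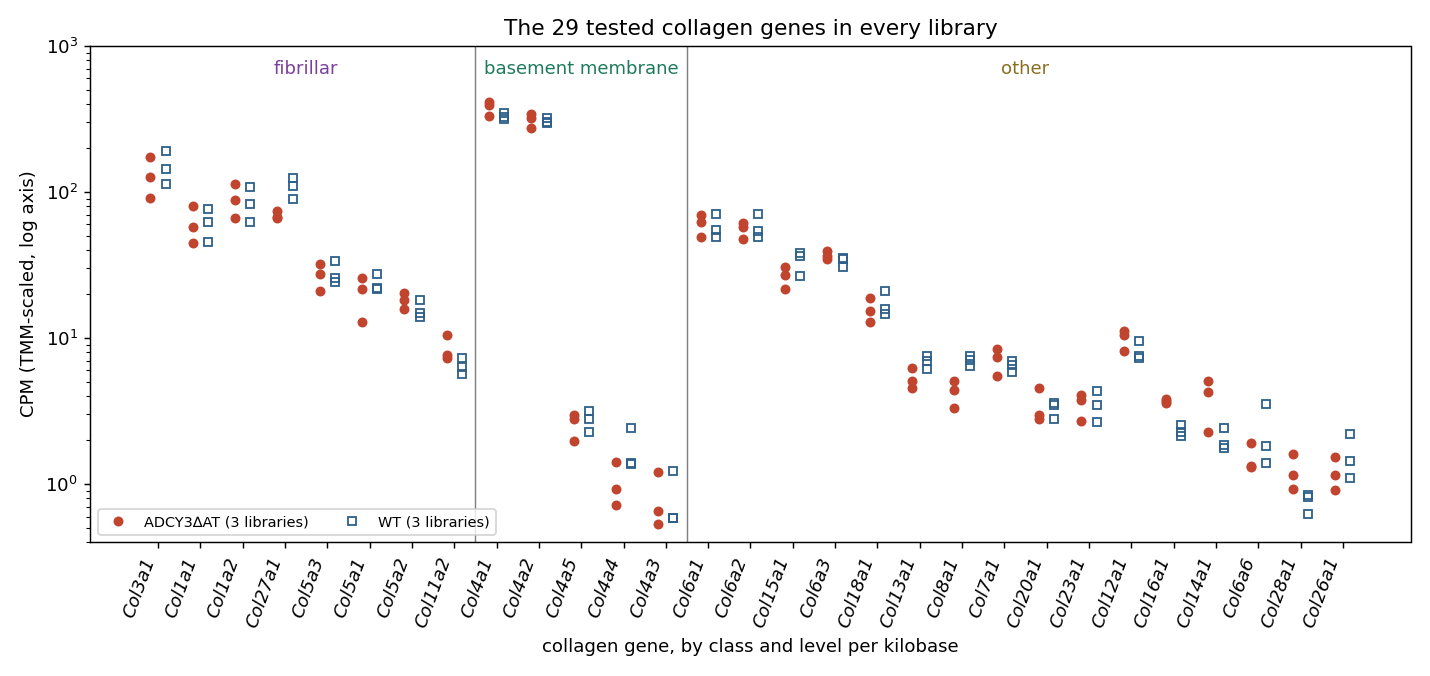
CPM (log axis) of each of the 29 tested collagen genes, with 1 point per library, ADCY3∆AT filled and WT open, ordered within each class by level per kilobase. Col4a1 and Col4a2 lie highest, and the points of the genotypes are separate for Col27a1, Col8a1, Col16a1 and Col28a1.

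Set per kilobase of annotated exon, a rough scale for comparing genes that depends on the length used, Col4a1 and Col4a2 stood far above the rest. Col4a1 averaged 50.7 ± 5.88 CPM per kb in ADCY3∆AT and 44.4 ± 2.08 CPM per kb in WT, and Col4a2 averaged 47.1 ± 4.98 CPM per kb in ADCY3∆AT and 46.4 ± 2.09 CPM per kb in WT (SD, n = 3 each). Both chains form the common type IV molecule. Next came Col3a1 (14.2 CPM per kb over all 6 libraries), which forms the fine fibrils of soft tissue, Col6a1 (13.6), a chain of the beaded filaments around cells, and Col1a1 (9.32), the main chain of coarse fibrils. The order among Col6a1, Col1a1, Col1a2 (6.97), Col27a1 (6.82) and Col6a2 (6.84) was not stable. Divided by the longest transcript instead of all annotated exons, Col1a2 (16.2 CPM per kb) lay above Col6a1 (14.5), Col27a1 (11.7), Col6a2 (11.6) and Col1a1 (10.3), while Col3a1 (25.1) stayed above these and Col4a1 (53.7) and Col4a2 (48.0) stayed on top. Among the other type IV chains Col4a5 reached 0.397, Col4a4 0.13 and Col4a3 0.0807 CPM per kb of annotated exon. These minor chains are those of kidney, lung and eye basement membranes.

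Between genotypes, 1 of the 29 tested collagens was called at an adjusted p under 0.05 and it fell, Col27a1. No collagen rose. Over all 14332 genes tested, 4.30% were called (2.63% higher and 1.67% lower), so the share of collagens called was near this background. With upper-quartile scaling the calls over all genes were 282 higher and 274 lower, against 377 higher and 239 lower here. By edgeR 4 of the 29 collagens had an unadjusted p under 0.05, against 3234 of all 14332 genes tested. DESeq2 called 2 lower (Col27a1 and Col8a1) and 0 higher, and limma-voom called 1 lower (Col27a1) and 0 higher. The median log2 fold change (ADCY3∆AT over WT) was -0.01 for the collagens and -0.01 for all genes tested. By class it was -0.03 for fibrillar, -0.01 for type IV and 0.02 for other collagens. In 4 of 29 collagens the libraries of the genotypes did not overlap, against 29.0% of all tested genes. The 95% interval of the change lay inside a 2-fold change either way for 21 collagens and reached beyond it for 8. In bulk tissue, fewer cells of a type and less RNA per cell cannot be told apart.

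**Figure D2:**
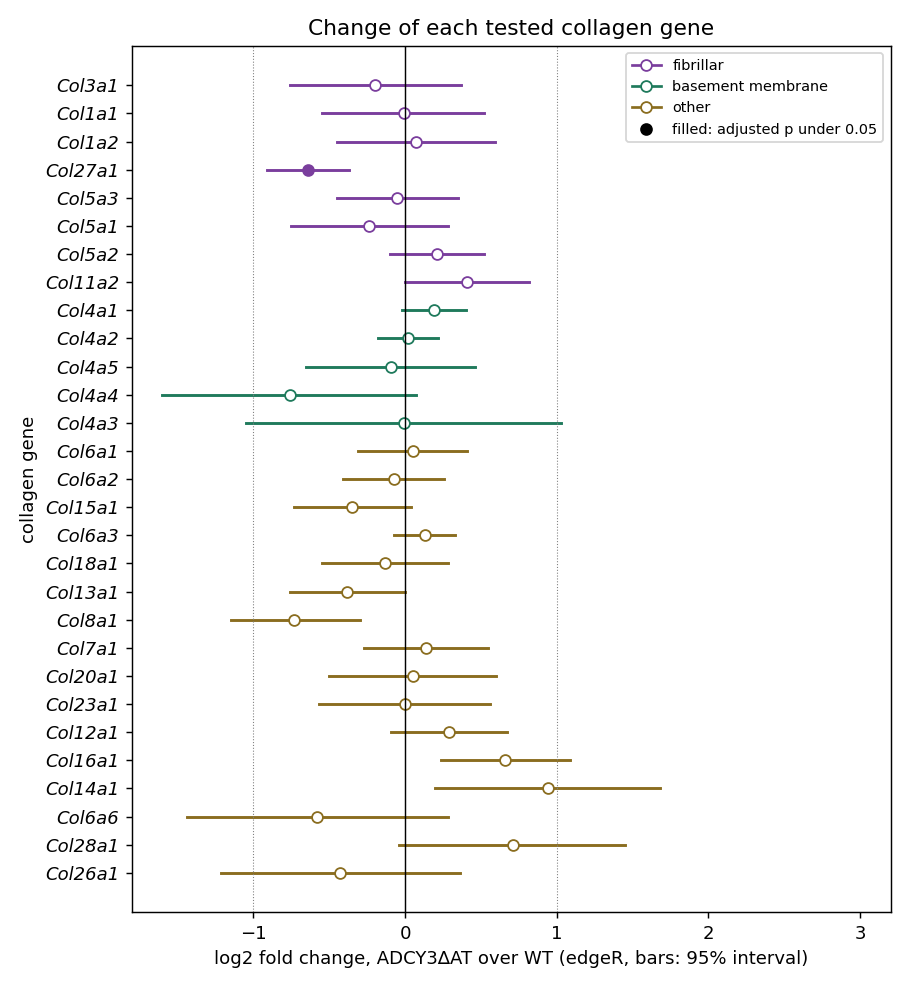
Log2 fold change of each tested collagen (ADCY3∆AT over WT) with its 95% interval, by class, with dotted lines at a 2-fold change. Col27a1 is the only filled point, at -0.64, and the widest intervals belong to genes at low level, Col4a3, Col6a6 and Col4a4.

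Among the fibrillar collagens, the type I and type III chains, which make up most tissue fibrils, varied far more between libraries of the same genotype than between genotypes. Col1a1 had 44.9, 57.6 and 80.3 CPM in ADCY3∆AT replicates 1, 2 and 3, against 45.2, 62.6 and 76.4 CPM in WT replicates 1, 2 and 3. Col1a2 had 66.2, 87.5 and 112.9 CPM in ADCY3∆AT, against 62.4, 83.0 and 107.9 CPM in WT. Col3a1 had 90.3, 126.5 and 174.3 CPM in ADCY3∆AT, against 113.7, 144.4 and 189.6 CPM in WT. In each genotype replicate 1 was lowest and replicate 3 highest for all 3 genes, and the genotypes overlapped. The log2 fold changes were -0.01 for Col1a1 (95% interval -0.55 to 0.52, edgeR adjusted p = 0.985), 0.07 for Col1a2 (-0.45 to 0.59, adjusted p = 0.886) and -0.20 for Col3a1 (-0.76 to 0.37, adjusted p = 0.685). The sign of each of these changes turned when single libraries were left out.

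Summed over the 8 tested genes, fibrillar collagens held 338.0, 413.9 and 518.0 CPM in ADCY3∆AT replicates 1, 2 and 3 and 399.5, 481.9 and 549.0 CPM in WT replicates 1, 2 and 3. Summed RNA of the 9 macrophage markers (9 tested, 0 called) was also lowest in replicate 1 and highest in replicate 3 of each genotype, at 59.2, 94.1 and 110.4 CPM in ADCY3∆AT and 59.8, 69.2 and 110.2 CPM in WT. The 15 fibroblast markers (13 tested, 0 called) had another order, with 963.4, 1048.3 and 942.0 CPM in ADCY3∆AT and 1039.4, 986.9 and 1292.7 CPM in WT. That sum was mostly Gsn, which adipocytes also express, at 666.3 to 763.7 CPM in ADCY3∆AT and 732.2 to 971.1 CPM in WT. Its order therefore does not stand for the single markers. Pi16, Clec3b, Lum and Dpt were lowest in replicate 1 and highest in replicate 3 of each genotype, and the other tested fibroblast markers were not. Pi16 had 5.83, 13.7 and 17.6 CPM in ADCY3∆AT and 6.07, 9.24 and 10.7 CPM in WT. The part of other cells in this spread was not tested. The median SD of log2 values between libraries of a genotype was 0.33 for fibrillar, 0.23 for type IV and 0.24 for other collagens, against 0.16 for all tested genes.

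**Figure D3:**
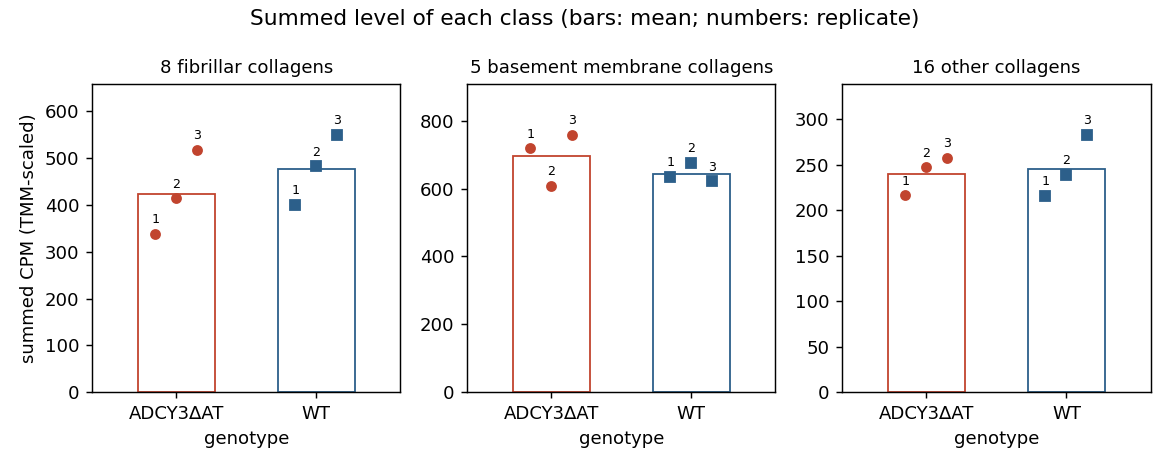
Summed CPM of the tested fibrillar, basement membrane (type IV) and other collagens in each library, ADCY3∆AT left of WT, with bars at the mean and points numbered by replicate. The genotypes overlap in all 3 classes, and fibrillar sums run from 338.0 to 518.0 CPM in ADCY3∆AT and from 399.5 to 549.0 CPM in WT.

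Of the fibrillar chains besides types I and III only Col27a1, described after the others, was called. Col5a3, a type V chain, averaged 26.9 ± 5.74 CPM in ADCY3∆AT and 27.8 ± 5.08 CPM in WT (SD, n = 3 each). Col5a1, the type V chain that helps to start type I fibrils, had 12.9 CPM in ADCY3∆AT replicate 1, well below the 21.7 and 25.6 CPM of the other ADCY3∆AT libraries and the 21.6, 21.9 and 27.5 CPM of WT. Col5a2, its partner, had 15.8, 18.3 and 20.5 CPM in ADCY3∆AT against 14.8, 14 and 18.3 CPM in WT. Col11a2, a chain best known from cartilage, had 7.65, 7.31 and 10.5 CPM in ADCY3∆AT against 5.68, 7.32 and 6.31 CPM in WT (log2 0.41, SE 0.18, edgeR adjusted p = 0.226).

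Col27a1 fell in ADCY3∆AT brown fat. It encodes the chain of type XXVII collagen, a fibrillar collagen with short interruptions in its helix that is best known from developing cartilage. Its gene (ENSMUSG00000045672) spans bases 63214004 to 63334991 of chromosome 4 in GRCm38, plus strand. It held 67.9, 74.0 and 66.5 CPM in ADCY3∆AT (1233, 1114 and 1314 counts), against 110.3, 124.6 and 89.5 CPM in WT (1689, 1686 and 1587 counts). Every ADCY3∆AT library lay below every WT library. In log2 units the change was -0.64 with an SE of 0.12 and a 95% interval of -0.91 to -0.37 (edgeR adjusted p = 0.0267), which puts WT 1.56-fold higher. An exact permutation test of its log2 values gave p = 0.1, two-sided, the smallest that 3 against 3 libraries can give. The call ended in 5 of the 6 fits without 1 library, in which the log2 fold change was -0.61 without ADCY3∆AT replicate 1 (adjusted p = 0.0559), -0.68 without ADCY3∆AT replicate 2 (0.0715), -0.61 without ADCY3∆AT replicate 3 (0.0809), -0.62 without WT replicate 1 (0.106) and -0.52 without WT replicate 2 (0.06). Without WT replicate 3, the library with the most muscle RNA, it was -0.76 (adjusted p = 0.0163). The table gives 1 count per gene and does not divide it by transcript.

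The promoter of Col27a1 is shown with those of Col4a1 and Col4a2, since these are the gene that was called and the most abundant members. Sequences are RefSeq windows of GRCm38.p6, from 250 bases before to 50 after the start annotated there, and capitals mark matches on either strand, none of which overlap each other here. The Col27a1 window lies inside the gene as given above (from base 63214004), so it belongs to another start than that one. The letters searched were CCAAT for the CCAAT box, GGGCGG for the GC box, TATAAA for the TATA box, TGACG for the core of the cyclic AMP response element and TTCNNGAA for a heat shock element pair.
Col27a1 (chr4:63215162-63215461, plus strand): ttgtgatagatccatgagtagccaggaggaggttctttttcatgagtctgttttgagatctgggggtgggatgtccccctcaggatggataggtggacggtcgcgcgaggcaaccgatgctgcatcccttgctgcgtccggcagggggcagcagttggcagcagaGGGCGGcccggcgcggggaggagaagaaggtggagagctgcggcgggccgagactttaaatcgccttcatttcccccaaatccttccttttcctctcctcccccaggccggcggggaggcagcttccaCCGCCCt
Col4a1 (chr8:11312777-11313076, minus strand): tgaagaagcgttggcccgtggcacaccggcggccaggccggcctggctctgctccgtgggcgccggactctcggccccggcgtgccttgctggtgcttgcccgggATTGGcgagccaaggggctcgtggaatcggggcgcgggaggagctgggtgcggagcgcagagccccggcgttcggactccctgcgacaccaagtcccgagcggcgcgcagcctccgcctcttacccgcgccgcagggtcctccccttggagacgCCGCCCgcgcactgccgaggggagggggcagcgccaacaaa
Col4a2 (chr8:11312555-11312854, plus strand): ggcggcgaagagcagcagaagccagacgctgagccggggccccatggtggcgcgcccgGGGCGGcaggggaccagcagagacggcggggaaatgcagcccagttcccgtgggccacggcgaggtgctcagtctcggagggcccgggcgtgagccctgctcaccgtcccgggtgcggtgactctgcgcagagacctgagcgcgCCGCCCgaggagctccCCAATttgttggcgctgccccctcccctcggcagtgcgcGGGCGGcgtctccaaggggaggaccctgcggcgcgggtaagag
The Col27a1 window held 2 GC boxes and no match to the other motifs. The Col4a1 window held 1 CCAAT match and 1 GC box, and that of Col4a2 held 1 CCAAT match and 3 GC boxes. Neither the cyclic AMP core nor the heat shock pair was in these 3 windows. Of the 44 collagens 35 had a window, and 22 of them (62.9%) held a GC box, against 35.7% of all 32851 windows. The CCAAT box was in 34.3% of collagen windows and 37.4% of all, the TATA box in 14.3% and 13.6%, the cyclic AMP core in 11.4% and 20.8%, and the heat shock pair in 2.86% and 8.52%. The collagen shares take 1 window per gene, while the shares of all windows have no such limit. A match is a run of letters and not a bound site, and these shares were not tested.

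Col4a1 and Col4a2 lie head to head on chromosome 8 and their annotated genes share 22 bases, so the windows above share 78 bases read in opposite directions. Col4a1 (ENSMUSG00000031502) had 395.9, 328.9 and 411.5 CPM in ADCY3∆AT, against 327.6, 348.5 and 318.1 CPM in WT. Col4a2 (ENSMUSG00000031503) had 319.0, 275.7 and 340.3 CPM in ADCY3∆AT, against 303.3, 322.5 and 295.7 CPM in WT. ADCY3∆AT replicate 2 was the lowest ADCY3∆AT library and WT replicate 2 the highest WT library for both genes, and the genotypes overlapped. The log2 fold change was 0.19 for Col4a1 (95% interval -0.02 to 0.40, edgeR adjusted p = 0.26) and 0.02 for Col4a2 (-0.18 to 0.22, adjusted p = 0.914), and neither was called. The sign of Col4a2 turned with upper-quartile scaling (-0.02) and without ADCY3∆AT replicate 3 or WT replicate 3.

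The ratio between both chains was steadier than either level. Col4a1 over Col4a2, as estimated counts, was 1.24, 1.19 and 1.21 in ADCY3∆AT, against 1.08 in each WT library. The ratio does not depend on library scaling, and its means were 1.21 ± 0.0243 in ADCY3∆AT and 1.08 ± 0.00254 in WT (SD, n = 3 each). Set per kilobase of annotated exon, the means were 1.08 in ADCY3∆AT and 0.957 in WT. The genotypes did not overlap, and the log2 ratio was 0.17 higher in ADCY3∆AT. Counting error alone gives each log2 ratio an SE of 0.0238 to 0.0304, above the SD of 0.0034 between the WT libraries, so that SD is too small to stand for the spread between libraries. The exact permutation p was 0.1, two-sided, the smallest the design allows, and 0.267 when adjusted over the 8 chain pairs compared.

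These 8 pairs were all pairs of chains of the same collagen type with a mean of at least 10 CPM in each gene, a rule set after the data were seen. In 3 of the 8 the genotypes did not overlap, and 29.0% of all tested genes had no overlap either, so the count by itself says little about chain ratios. Col5a1 over Col5a2 was 0.819, 1.18 and 1.25 in ADCY3∆AT against 1.46, 1.56 and 1.5 in WT, a difference that was largest in ADCY3∆AT replicate 1. Col6a1 over Col6a2 was 1.04, 1.08 and 1.14 in ADCY3∆AT against 0.998, 1.01 and 0.996 in WT. Both had an exact permutation p of 0.1 (0.267 adjusted). The usual type I molecule takes more of the Col1a1 chain than of Col1a2. The count ratio of Col1a1 over Col1a2 was 0.679, 0.658 and 0.711 in ADCY3∆AT against 0.725, 0.754 and 0.708 in WT. The genotypes overlapped (exact permutation p = 0.2, 0.4 adjusted). Per kilobase of annotated exon its mean was 1.29 in ADCY3∆AT and 1.38 in WT. Per kilobase of longest transcript Col1a1 (10.3 CPM per kb) lay below Col1a2 (16.2), so which chain had more RNA depends on the length used. Col1a1 and Col1a2 varied together across libraries, and their count ratio stayed within 0.658 to 0.754 while each gene ranged over 1.69-fold or more within a genotype. For the remaining 4 pairs, within types V and VI, the genotypes overlapped and adjusted p ran from 0.533 to 1.

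**Figure D4:**
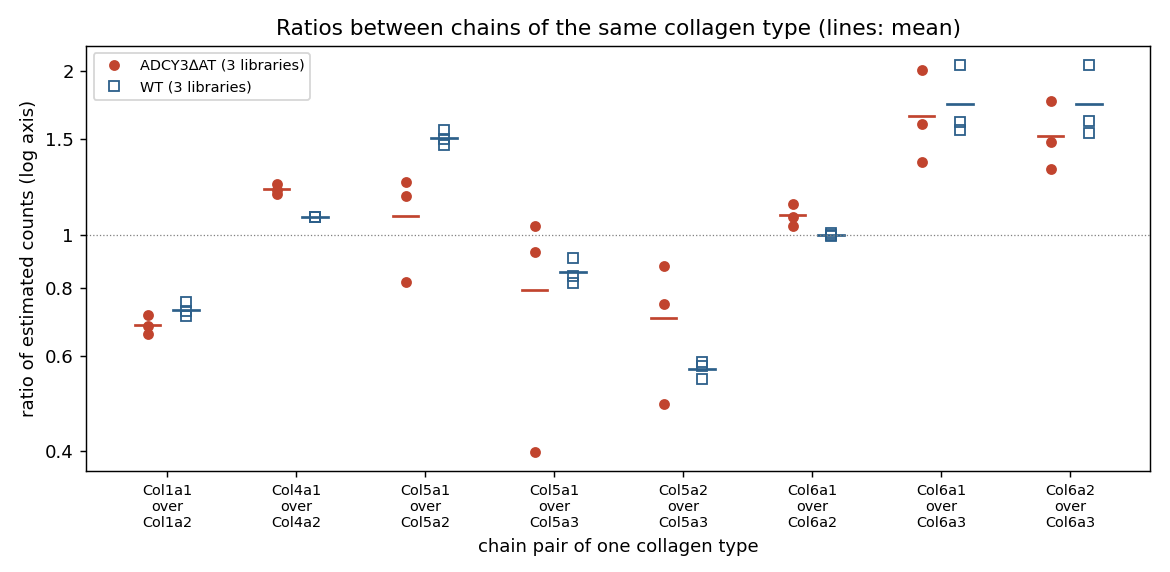
Ratio of estimated counts (log axis) for the 8 chain pairs in each library, ADCY3∆AT left of WT, with a line at each mean. Col4a1 over Col4a2, Col5a1 over Col5a2 and Col6a1 over Col6a2 have no overlap between genotypes, and Col4a1 over Col4a2 is 1.08 in all 3 WT libraries.

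The minor type IV chains were far lower than Col4a1 and Col4a2, and none was called. Col4a5, whose molecule includes Col4a6 or Col4a3 and Col4a4 in other tissues, had 1.98, 2.79 and 2.99 CPM in ADCY3∆AT against 2.29, 2.81 and 3.16 CPM in WT (log2 -0.09, edgeR adjusted p = 0.864). Col4a4 had 0.716, 0.93 and 1.42 CPM in ADCY3∆AT against 1.37, 1.40 and 2.42 CPM in WT (log2 -0.76, 95% interval -1.6 to 0.07, adjusted p = 0.26), and its partner Col4a3 averaged 0.802 ± 0.363 CPM in ADCY3∆AT and 0.806 ± 0.376 CPM in WT. Some Col4a3 exon bases (5.65%) overlap a processed transcript on the other strand. Col4a6 had 5, 2 and 3 counts in ADCY3∆AT and 2, 1 and 0 in WT and was not tested.

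Type VI collagen forms beaded filaments next to cells and is the main collagen of the adipocyte surface after type IV. None of its 4 tested genes was called. Col6a1 had 49.4, 62.7 and 69.5 CPM in ADCY3∆AT against 49.4, 55.1 and 70.9 CPM in WT (log2 0.05, 95% interval -0.31 to 0.41, edgeR adjusted p = 0.89). Col6a2 had 47.7, 58.0 and 61.0 CPM in ADCY3∆AT against 49.5, 54.5 and 71.1 CPM in WT (log2 -0.07, -0.41 to 0.26, adjusted p = 0.815). Both were lowest in replicate 1 and highest in replicate 3 of each genotype, as the type I chains were, and the signs of both turned without single libraries. Col6a3, whose C-terminal fragment is endotrophin, was the steadiest, with 36.2, 39.3 and 34.6 CPM in ADCY3∆AT against 30.6, 35.3 and 34.6 CPM in WT (log2 0.13, -0.07 to 0.33, adjusted p = 0.419).

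The multiplexins Col15a1 and Col18a1 sit in the zone of basement membranes, and Col18a1 is the source of endostatin. Col15a1 had 21.6, 27.2 and 30.9 CPM in ADCY3∆AT against 26.5, 38.4 and 36.5 CPM in WT (log2 -0.35, 95% interval -0.73 to 0.04, edgeR adjusted p = 0.264). Col18a1 averaged 15.7 ± 3.1 CPM in ADCY3∆AT and 17.1 ± 3.52 CPM in WT (log2 -0.13, adjusted p = 0.713). Neither was called, and the genotypes overlapped in both.

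Col8a1, a short-chain collagen of vessel walls that forms hexagonal nets, was the closest to a call. It had 3.30, 4.38 and 5.06 CPM in ADCY3∆AT against 7.12, 6.43 and 7.55 CPM in WT, without overlap. Its change in log2 units was -0.73 with an SE of 0.19 and a 95% interval of -1.15 to -0.30 (edgeR adjusted p = 0.0675), and DESeq2 called it (adjusted p = 0.0369). The 9 mural cell markers and 10 endothelial markers, cells of the vessel wall, had summed levels of 641.1 to 687.8 and 653.5 to 735.1 CPM in ADCY3∆AT, and of 565.2 to 658.8 and 652.3 to 706.5 CPM in WT. Among them Cspg4, a pericyte proteoglycan, was called lower in ADCY3∆AT (adjusted p = 0.00933) and no other marker of either list was called. Over all tested genes 4.30% were called. By edgeR 4 endothelial and 3 mural markers had an unadjusted p under 0.05, against 3234 of all 14332 tested genes. The genotypes did not overlap in 4 endothelial markers (2 higher and 2 lower) and 3 mural ones (1 higher and 2 lower), against 29.0% of all tested genes. The part of these cells in the level of Col8a1 was not tested.

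The fibril-associated collagens sit on the surface of fibrils, and all 4 tested ones had a positive log2 fold change without a call. Col16a1 had 3.58, 3.72 and 3.80 CPM in ADCY3∆AT against 2.15, 2.29 and 2.54 CPM in WT, without overlap (log2 0.66, SE 0.19, edgeR adjusted p = 0.0841). Col14a1, also known as undulin, had 2.26, 4.25 and 5.11 CPM in ADCY3∆AT against 1.76, 1.85 and 2.42 CPM in WT (log2 0.94, SE 0.32, adjusted p = 0.137), and it was called without ADCY3∆AT replicate 1, its lowest ADCY3∆AT library. Col12a1 averaged 9.92 ± 1.61 CPM in ADCY3∆AT and 8.12 ± 1.27 CPM in WT, and Col20a1 3.44 ± 0.94 CPM in ADCY3∆AT and 3.31 ± 0.438 CPM in WT (SD, n = 3 each). A median of 0.48 over 4 genes is a description only.

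Of the remaining tested genes none was called. Col13a1, a membrane-spanning collagen of cell contacts, had 4.57, 6.24 and 5.06 CPM in ADCY3∆AT against 7.51, 6.95 and 6.14 CPM in WT (log2 -0.38, edgeR adjusted p = 0.226). Col28a1, which in mice is known from peripheral nerve, had 1.6, 0.93 and 1.16 CPM in ADCY3∆AT against 0.849, 0.813 and 0.62 CPM in WT, without overlap (log2 0.71, 95% interval -0.04 to 1.45, adjusted p = 0.247). Summed RNA of the 8 Schwann cell markers (8 tested, 0 called) was 137.1 to 211.9 CPM in ADCY3∆AT and 136.5 to 158.7 CPM in WT. Of these markers 7 had a positive and 1 a negative log2 fold change (median 0.52). By edgeR 4 of them had an unadjusted p under 0.05, against 3234 of all 14332 tested genes. The part of Schwann cell RNA in the level of Col28a1 was not tested. Col7a1, the anchoring fibril chain of skin, Col23a1, Col26a1 and Col6a6 had log2 fold changes of 0.14, 0.00, -0.43 and -0.58 and adjusted p-values from 0.404 to 0.995.

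Of the 44 collagens, 15 were too low to test, with at most 12 counts in any library. They included the cartilage genes Col2a1, Col9a1, Col9a2, Col9a3, Col10a1 and Col11a1. Col9a3 had 6, 12 and 9 counts in ADCY3∆AT against 2, 4 and 1 in WT, and Col11a1 had 12, 5 and 2 counts in ADCY3∆AT against 0, 1 and 3 in WT. A count of 0 allows up to 3 counts, which is 0.152 to 0.199 CPM in an ADCY3∆AT library and 0.169 to 0.222 CPM in a WT library, counting error only. Of Col9a3 exon bases, 6.07% overlap Tcfl5 on the other strand.

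While 1 of the 29 tested collagens was called, several genes that modify and fold collagen chains rose in ADCY3∆AT brown fat. Of 19 tested genes of modification and folding, 5 rose, 0 fell and 14 were not called, with a median log2 fold change of 0.01. Over all tested genes, 2.63% were called higher and 1.67% lower. P4ha1, the catalytic subunit that hydroxylates Y-position prolines, rose 13.3-fold (137.6 ± 41.5 CPM in ADCY3∆AT and 10.3 ± 0.24 CPM in WT, edgeR adjusted p = 0.00049), and its relative P4ha2 rose 4.08-fold (26.4 ± 5.41 CPM in ADCY3∆AT and 6.45 ± 0.661 CPM in WT, adjusted p = 0.00155). Plod2, which hydroxylates lysines at the ends of chains, rose 3.58-fold (9.8 ± 1.81 CPM in ADCY3∆AT and 2.76 ± 0.651 CPM in WT, adjusted p = 0.00547). Serpinh1, the chaperone HSP47 that binds folded collagen in the endoplasmic reticulum, rose 2.29-fold (360 ± 83.3 CPM in ADCY3∆AT and 156.9 ± 11.3 CPM in WT, adjusted p = 0.00819). These 4 calls were kept in all 6 fits without 1 library. Plod1, the lysyl hydroxylase of the helix, rose 1.36-fold (adjusted p = 0.0385), a call that ended in 4 of those 6 fits and with upper-quartile factors or library size alone. P4hb, the partner subunit of both P4HA enzymes, stood at -0.01 in log2 units (adjusted p = 0.956).

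**Figure D5:**
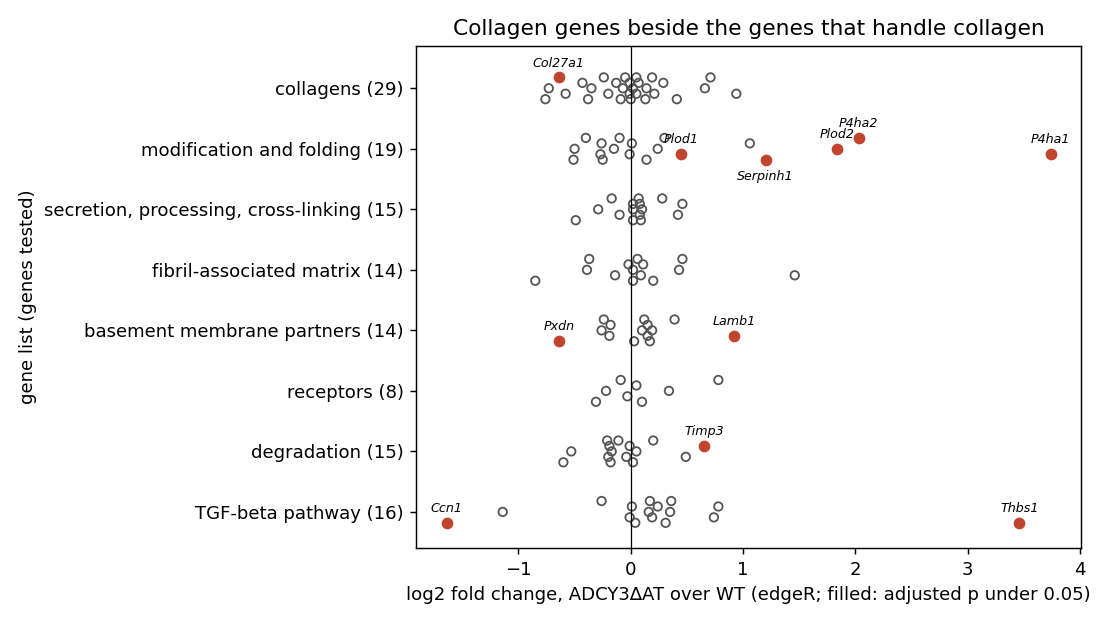
Log2 fold change (ADCY3∆AT over WT) of the tested collagens and of 7 lists of genes that handle, bind, sense or degrade them, 1 point per gene, filled where called. The collagens lie between -0.76 and 0.94, while P4ha1 lies at 3.74, P4ha2 at 2.03, Plod2 at 1.84 and Serpinh1 at 1.2.

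Of 14 tested genes whose products accompany type IV collagen in the basement membrane, 1 rose, 1 fell and 12 were not called (median 0.11), where 4.30% of all tested genes were called. Lamb1, a laminin chain, rose 1.89-fold (111.7 ± 14.5 CPM in ADCY3∆AT and 59.2 ± 11.2 CPM in WT, edgeR adjusted p = 0.0162), a call that ended without ADCY3∆AT replicate 2 or WT replicate 1 and with the replicate number as a block. Pxdn, the peroxidasin that cross-links type IV molecules, fell (32.1 ± 2.4 CPM in ADCY3∆AT and 50 ± 1.99 CPM in WT, adjusted p = 0.00685, kept in all 6 fits without 1 library). In the 15 tested genes of secretion, processing and cross-linking, none was called by edgeR or limma-voom, and DESeq2 called 1 lower. By edgeR 3 of these 15 had an unadjusted p under 0.05, against 3234 of all 14332 tested genes, and the median was 0.07. The smallest p-values there belonged to Loxl1 (log2 -0.49, adjusted p = 0.126) and Lox (0.28, adjusted p = 0.135), enzymes that start cross-links.

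In the other lists most genes were not called. For scale, edgeR called 4.30% of all 14332 tested genes, and 3234 had an unadjusted p under 0.05. None of 14 fibril-associated matrix genes passed in edgeR, limma-voom or DESeq2 (3 with an unadjusted p under 0.05, median 0.04), with Fn1, fibronectin, at 0.43 (edgeR adjusted p = 0.121) and Vcan, versican, at 1.46 (adjusted p = 0.137). None of 8 collagen receptors passed in edgeR, limma-voom or DESeq2 (2 with an unadjusted p under 0.05, median 0.01), with Ddr1 at -0.31 (adjusted p = 0.141) and Itga10 at 0.78 (adjusted p = 0.187). Of 15 degradation genes 1 rose, 0 fell and 14 were not called (1 with an unadjusted p under 0.05, median -0.11). Timp3, an inhibitor of matrix metalloproteinases that is held in the matrix, had 325.1, 331.1 and 328.8 CPM in ADCY3∆AT against 213.2, 204.8 and 210.7 CPM in WT (adjusted p = 0.00228). Of 16 genes of the TGF-beta pathway and its matrix targets 1 rose, 1 fell and 14 were not called (8 with an unadjusted p under 0.05, median 0.18). In this list 12 log2 fold changes were positive and 4 negative. The genotypes did not overlap in 8 of these genes (6 higher and 2 lower), against 29.0% of all tested genes. Thbs1, thrombospondin 1, rose 11-fold (18.7 ± 6.28 CPM in ADCY3∆AT and 1.7 ± 0.178 CPM in WT, adjusted p = 0.00162), and Ccn1 fell (11.4 ± 3.14 CPM in ADCY3∆AT and 35.8 ± 8.56 CPM in WT, adjusted p = 0.00892). Ccn2, a common companion of collagen genes in fibrosis that was picked after its value was seen, stood at 0.78 in log2 units (adjusted p = 0.105).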

How the data were processed

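Polyadenylated RNA was sequenced in 6 libraries. The authors deposited estimated counts for 54385 gene rows in 1 table, for which the submitters' processing notes name GRCm38, StringTie, Salmon and edgeR without versions or roles. Per the labels' protocols, RNA was taken with TRIzol and spin columns and libraries were paired-end (NEBNext Ultra II). The sources used here do not say whether counting used strand, so a gene and an overlapping gene cannot be told apart. Columns were matched by each sample's description, and 54131 rows had a GENCODE M21 symbol. Chi-square per gene between libraries of a genotype was 6.18 to 26.8, above sampling noise. Whether they came from separate mice is not given, so p-values measure the spread between these libraries, which may be technical.

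Estimated counts were rounded, filtered with filterByExpr (minimum count 10, minimum total 15), scaled by TMM and tested in R 4.3.3 by edgeR 4.0.16 (glmQLFit and glmQLFTest, two-sided), with Benjamini-Hochberg adjustment over 14332 genes and a threshold of 0.05. Values are mean ± SD, n = 3 per genotype. Single values also had an exact permutation test over 10 divisions of the libraries, on log2(CPM + 0.5) for genes and on log2 ratios for chain pairs. The fit was tested on simulated data. Alternatives were other scalings, DESeq2 1.42.0, limma-voom (limma 3.58.1), other filters, a replicate block and leaving out each library. Members, lists and the rule for named genes were chosen with earlier results of these data known. The rule takes called collagens, the 3 highest per kb in each class and, in a class without a call, the smallest p. In the handling lists it takes up to 4 called genes, or the 2 with the smallest p. Other collagens and Plod1 and P4hb were named after their values were seen. No set test was run.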

Additional observations from a re-analysis of the deposited data

How the results depend on the processing

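Calls of single collagens were few and at the edge of what these libraries resolve. Without 1 library, the counts of called genes ran from 84 to 301 higher (377 with all libraries) and from 78 to 160 lower (239). Over those fits 0 to 1 collagens were called higher and 0 to 1 lower, with 0 to 1 of the fibrillar ones lower and 0 to 1 of the other class higher (Col14a1), and 0 to 1 basement membrane partners higher. DESeq2 called 603 genes higher and 398 lower, among them 2 collagens lower (1 of the other class), 1 secretion and cross-linking gene lower and 2 TGF-beta genes higher. Without a filter on low counts there were 1204 higher and 747 lower. Among these were 1 collagen higher (1 of the other class, Col14a1) and 2 lower (1 of the other class, Col8a1, whose log2 fold change was -0.70), 1 secretion and cross-linking gene lower, 2 fibril-associated genes higher, and 5 TGF-beta genes higher and 2 lower. Col27a1 was called in all 8 alternatives that kept every library.

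The signs of changes near 0 turned. Without 1 library, log2 fold changes ran from -0.46 to 0.02 for Col3a1, -0.26 to 0.18 for Col1a1, -0.14 to 0.29 for Col1a2, -0.05 to 0.10 for Col4a2, -0.21 to 0.08 for Col4a5, -0.06 to 0.21 for Col6a1 and -0.18 to 0.10 for Col6a2. That of Col1a1 was 0.01 without a filter, and that of Col4a2 was -0.02 with upper-quartile factors. The cause was not tested. Col27a1 ran from -0.76 to -0.52 and Col8a1 from -0.88 to -0.56.

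Without mitochondrially encoded genes in the total, collagens took 0.178% of counts in ADCY3∆AT and 0.18% in WT. Per length of the longest transcript, 2 of the 3 highest fibrillar genes were shared with the order by annotated exons. With the replicate number as a block, 193 genes were called higher and 131 lower, and 0 basement membrane partners higher (Lamb1 lost its call). Over all tested genes, the deviations of same-numbered libraries of the genotypes had correlations of 0.00134, -0.00679 and -0.0486 for replicates 1, 2 and 3. A value over all genes does not speak for single genes, and whether these libraries share more than a number was not tested.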
